A study of Mus musculus with 2 samples.

Results

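The melanocortin receptors Mc5r and Mc1r, the receptor accessory proteins Mrap and Mrap2, and Pomc, which encodes the precursor of their ligands, were examined in single cells of murine back skin and preputial gland (PG). The 5 genes were taken by their symbols from the 32285 genes listed for each of the 2 libraries, and all 5 were listed in both. Each library was made from the pooled tissue of 3 male wild type C57BL/6 mice aged 52 weeks, with no treatment named, and each tissue has 1 library. Because the mice were pooled, no value below has a replicate and no test between tissues was possible, and tissue, library and chemistry cannot be told apart. Barcodes that reached 500 genes and 1000 unique molecular identifiers (UMIs) and had no more than 10% mitochondrial UMIs were taken as cells, 8899 from skin and 4699 from PG. Together these hold 27407186 UMIs for skin and 15270076 for PG, the median cell has 2386 and 2729, and 0 cell barcodes were shared by the libraries.

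Melanocortin receptors couple through Gs to adenylyl cyclase and are activated by peptides cut from pro-opiomelanocortin, while agouti and agouti-related protein antagonise some of them. Mc1r is the receptor through which melanocytes switch to dark pigment, and Mc5r is known from exocrine glands, including sebaceous and preputial glands, where mice that lack it produce less lipid. Mrap brings the corticotropin receptor Mc2r to the cell surface and is known from adrenal cortex and fat, and Mrap2 is known from the hypothalamus. The preputial gland is an enlarged, specialised sebaceous gland, and its sebocytes are holocrine cells that fill with lipid and burst.

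The ligands share a short core of histidine, phenylalanine, arginine and tryptophan, which is what the receptors recognise. The longest reading frame of the transcript Pomc-201 in the GENCODE annotation (708 bases, chromosome 12, plus strand, build mm10) held the codons of this core 3 times, all in exon 3, the last exon. They are shown because they are the ligand sites of the pathway, with the 12 bases of the core in capitals, in the order of the reading frame: the first lies in the γ-melanocyte-stimulating hormone, the second in corticotropin and α-melanocyte-stimulating hormone, and the third in β-melanocyte-stimulating hormone.

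Site at chr12:3959989-3960024: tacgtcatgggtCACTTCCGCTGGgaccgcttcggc
Site at chr12:3960133-3960168: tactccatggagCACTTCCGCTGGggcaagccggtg
Site at chr12:3960325-3960360: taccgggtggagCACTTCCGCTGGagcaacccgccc

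The 12 bases of the core were identical at the 3 sites, with 0 mismatches in each pair, and the bases around them differed.

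In the same annotation Mc1r lies at chr8:123407107-123410744, Mrap at chr16:90738207-90749785, Mrap2 at chr9:87144306-87184045 and Pomc at chr12:3954951-3960642, each on the plus strand, and Mc5r lies on chromosome 18. Tubb3 starts 680 bases behind the end of Mc1r on the same strand, so reads near the end of either gene depend on how the annotation draws that boundary. The annotation also draws 2 other gene models over Mc1r, which were not among the genes of the deposited files.

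Cells were gated by the share of their UMIs that came from markers of 11 cell classes, and the names below stand for cells that resemble those classes. In PG 876 cells passed the sebocyte gate, 691 were keratinocytes with a raised sebocyte share (called intermediate), 1940 were keratinocytes, 563 were fibroblasts and 0 were melanocytes. In skin there were 27 sebocytes, 47 intermediate cells, 5996 keratinocytes, 500 hair matrix cells, 21 melanocytes and 859 fibroblasts. No gate was passed by 765 skin and 251 PG cells, and 303 and 116 cells of mixed markers were left out of the classes. The sebocyte gate asked for 40 marker UMIs per 10000, and 23 skin cells and 317 PG cells lay within 25% of that limit, so the edge of the class is not sharp. Among the 10 leading genes of the classes were Awat2 and Scd1 in PG sebocytes, Cidea, Scd1, Soat1 and Plin2 in skin sebocytes, and Dct, Mlana, Pmel and Tyrp1 in skin melanocytes. PG keratinocytes had 1 of their own markers there, Krtdap, beside Cst6, Sprr1a and Krt17.

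Levels are given as UMIs of the gene per 1000000 UMIs of the class (CPM). Intervals are exact and at the 95% level, from the Poisson distribution for levels and the binomial distribution for shares and ratios, and they describe counting error alone, since the mice were pooled. Where a class held 0 UMIs, the limit is that of 3 counts.

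The members were few in number and differed in where they lay. In PG the kept cells held 303 UMIs of Mc5r, 43 of Mrap, 7 of Pomc, 1 of Mrap2 and 0 of Mc1r. In skin they held 53 UMIs of Mc1r, 51 of Mc5r, 13 of Pomc, 1 of Mrap and 0 of Mrap2. In PG 265 Mc5r UMIs lay in sebocytes and 35 Mrap UMIs in fibroblasts. In skin the 21 melanocytes held 21 of the Mc1r UMIs and keratinocytes 15, and Pomc and Mrap2 were scattered or near absent.

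**Figure D1:**
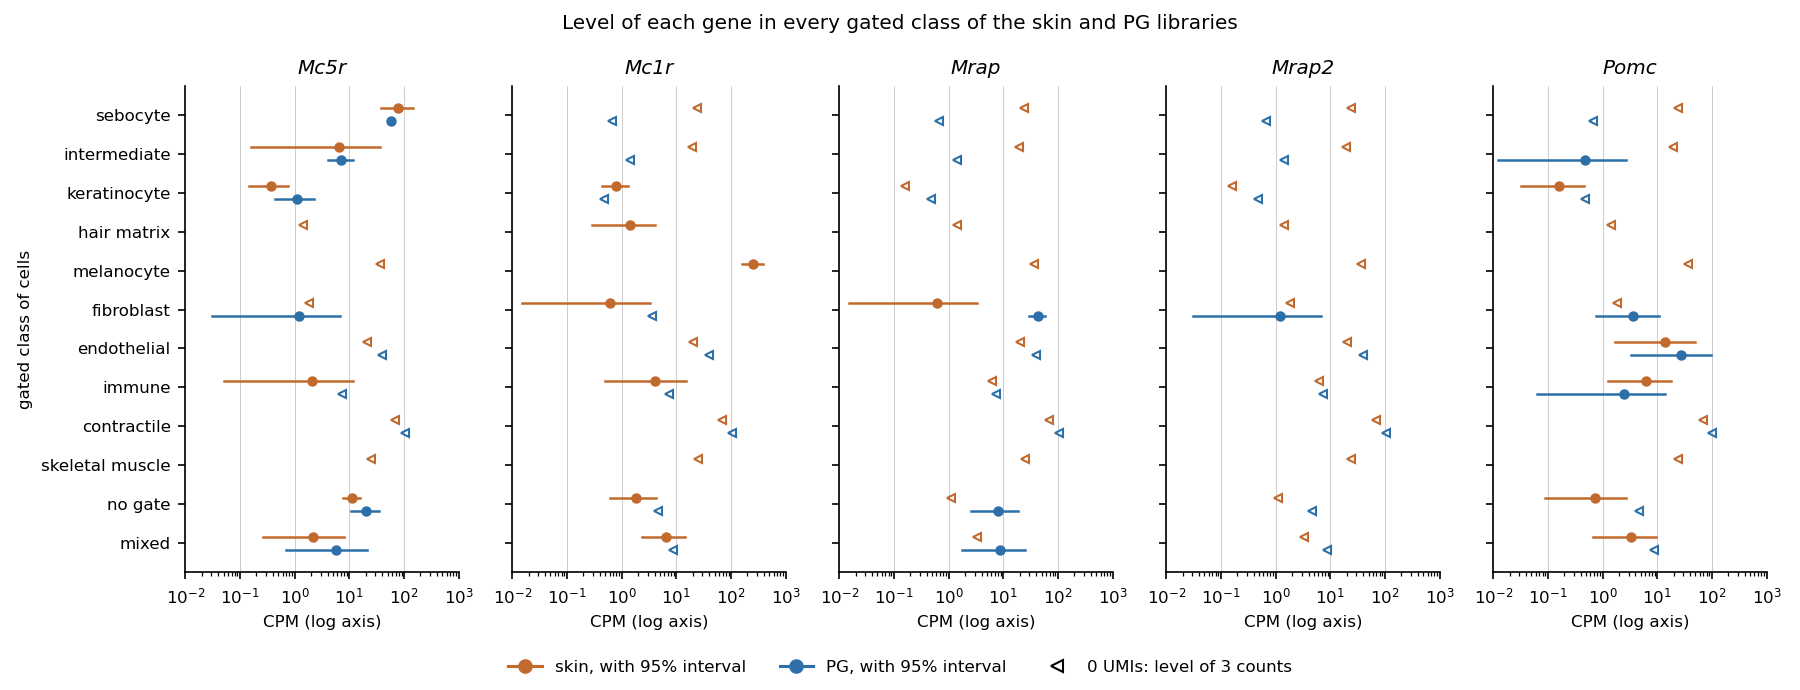
Level of Mc5r, Mc1r, Mrap, Mrap2 and Pomc (CPM, log axis) in each gated class of at least 20 cells; points are skin (orange) or PG (blue) with exact 95% intervals, and open triangles mark the level of 3 counts in a class with 0 UMIs. Mc5r stands at 58.8 CPM in PG sebocytes and 78.4 CPM in skin sebocytes, Mc1r at 252 CPM in skin melanocytes and Mrap at 42.2 CPM in PG fibroblasts.

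The first comparison asked whether Mc5r, the sebaceous melanocortin receptor, lay in sebocytes rather than in the keratinocytes around them. In PG sebocytes 265 of 4506921 UMIs were Mc5r, a level of 58.8 CPM (95% interval 51.9 to 66.3). In PG keratinocytes 7 of 6329270 UMIs were Mc5r, a level of 1.11 CPM (0.445 to 2.28). The level was thus 53.2-fold higher in sebocytes (25.4 to 134-fold; log2 ratio 5.73). Of 11214 genes with at least 20 UMIs over these classes, 2.44% were at least 4-fold higher in sebocytes, and Mc5r stood at rank 14 from the highest ratio. Mc5r had enough UMIs to be ranked only through its 265 in sebocytes. PG fibroblasts held 1 Mc5r UMI and PG immune and endothelial cells held 0, with limits of 7.39 and 40.2 CPM.

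Mc5r rose in steps from PG keratinocytes over intermediate cells to sebocytes. The 691 intermediate PG cells held 15 UMIs (7.12 CPM, 3.99 to 11.7), which was 6.44-fold the keratinocyte level (2.47 to 18.7). The sebocyte level was 8.26-fold that of the intermediate cells (4.92 to 14.96). The genes that led the intermediate cells, among them Nrg2, Aldh3a1, Tgm2 and Cck, include none of the sebocyte markers. Of the sebocytes, the 267 that also passed the keratinocyte gate held 55 UMIs (44.7 CPM, 33.7 to 58.2), and the 609 that did not held 210 (64.1 CPM, 55.7 to 73.4). The latter level was 1.43-fold the former (1.06 to 1.97-fold), and neither interval overlapped that of the intermediate cells. The sebocyte markers did not all take these steps. From keratinocytes over intermediate cells to sebocytes with and without the keratinocyte gate, Scd1 stood at 93.2, 307, 2236 and 3674 CPM. Awat2 stood at 8.06, 10.9, 1163 and 451 CPM in the same order. A Mc5r UMI was found in 210 of the 876 sebocytes, 24.0% (21.2 to 26.9%), of which 166 held 1, 37 held 2 and 7 held more, up to 5. The share in PG keratinocytes was 0.361%, at a median of 2906 UMIs per cell against 4740 in sebocytes. After each cell was thinned to 1000 UMIs the sebocyte share was 5.94%, so most of the cells without a UMI cannot be called negative.

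Free RNA was measured beside these values. Barcodes with 21 to 100 UMIs, far under the limit for a cell, had Mc5r at 63.8 CPM (53.7 to 75.4) in PG, close to the sebocyte level. PG keratinocytes held 1.73% of that level. For other sebocyte genes they held 1.60% (Soat1, a sterol acyltransferase), 2.47% (Awat2, a wax synthase), 2.70% (Scd1, a desaturase), 4.30% (Elovl3, a fatty acid elongase) and 24.3% (Cidea, a lipid droplet protein). Free RNA was also subtracted, with its share of a class set from fibroblast, endothelial and immune markers. In PG keratinocytes that share was 9.41% with the profile of at most 20 UMIs and 15.9% with that of 21 to 100. Both exceeded the share of the free Mc5r level that keratinocytes held, so their level was cut to 0 CPM. The upper ends were 0.643 and 0.693 CPM. That 0 was fixed by the subtraction and does not show where the keratinocyte UMIs came from. The intermediate cells held 11.2% of the free level for Mc5r, 2.70% for Soat1, 3.35% for Awat2, 8.89% for Scd1, 12.9% for Elovl3 and 50.5% for Cidea. Per 100 UMIs of Soat1 there were 53.6 of Mc5r in the intermediate cells (26.6 to 104), 12.95 in free RNA (10.8 to 15.5) and 24.2 in sebocytes (21.1 to 27.7). Per 100 of Awat2 there were 65.2 (31.6 to 130.5), 19.6 (16.2 to 23.5) and 9.11 (8.01 to 10.3) in the same order. Soat1, Awat2, Scd1, Elovl3 and Cidea are markers of the sebocyte gate, and Mc5r is not. The gate therefore limits the levels of these genes in keratinocytes and intermediate cells, and so the proportions to them. Per Soat1 and per Awat2, Mc5r in intermediate cells exceeded the proportion of free RNA in barcodes of 21 to 100 UMIs. The part of the gate in this was not tested. The share of the free level was lower for Mc5r than for Cidea. The shares of Elovl3 rest on 8 free UMIs, and that in intermediate cells is not told apart from the share of Mc5r. Per 100 of Scd1 the intermediate cells had 2.32 (1.29 to 3.85) and free RNA 1.85 (1.55 to 2.19), and these overlapped. In barcodes of 21 to 100 UMIs free RNA did not keep the proportions of sebocytes by Soat1 or Awat2, and the source of Mc5r in intermediate cells was not tested. In barcodes of at most 20 UMIs Mc5r was at 40.2 CPM (23.0 to 65.3), of which keratinocytes held 2.75%. These barcodes held 16 UMIs of Mc5r, 67 of Awat2 and 108 of Soat1, and proportions with intervals were not computed from them.

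Within the PG sebocytes, cells were ordered by Dbi, which encodes the acyl-CoA and diazepam binding protein and made up 21126 CPM of this class, and separately by the summed share of 10 lipid genes, and were divided into 4 bins of 219 cells. By Dbi, Mc5r stood at 43.4, 48.5, 49.0 and 81.9 CPM from the lowest to the highest bin, from 34, 50, 59 and 122 UMIs. The lowest 3 bins overlapped in their intervals, and the highest bin, 68.0 to 97.8 CPM, lay above them. The highest over the lowest was 1.89-fold (log2 ratio 0.92, 0.36 to 1.51). The median depth rose over the same bins from 3346 to 7156 UMIs per cell, and after thinning the log2 ratio was 0.63 with an interval from -0.55 to 1.87 that includes no change.

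By the lipid genes the estimate of the difference was larger, but its interval overlapped that by Dbi, also after thinning. Mc5r stood at 24.4 CPM (15.3 to 36.9) in the lowest bin, 51.8 and 52.9 CPM in the middle bins and 91.2 CPM (76.1 to 109) in the highest, from 22, 52, 64 and 127 UMIs. The middle bins did not differ beyond their intervals, and the lowest and highest bins lay apart from them. The highest over the lowest was 3.74-fold (log2 ratio 1.90, 1.24 to 2.63), and after thinning to 1000 UMIs it was 5-fold, with the log2 ratio at 2.32 (0.91 to 4.06). The lipid genes Scd1, Soat1, Awat2, Elovl3, Far2, Dgat2, Plin2 and Cidea also belong to the markers of the sebocyte gate, so the lowest bins hold the cells nearest its edge. None of the other 4 members had a UMI in PG sebocytes, where 3 counts are 0.666 CPM.

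Clusters of PG cells were made without the members and their pathway, and 4 of them were sebocytes. Mc5r stood at 87.8 CPM (73.8 to 104) in a cluster of 218 cells led by Awat2, Idi1 and Soat1, which held Awat2 at 1828 CPM. It stood at 59.3 CPM (46.2 to 74.9) in a cluster of 221 cells led by Cidea, where Awat2 was at 13.5 CPM. In a cluster of 191 cells led by Cyp2f2 and Sphk1 it stood at 44.4 CPM (30.7 to 62.0), and in one of 64 cells led by Pdk4 and Plin2 at 25.7 CPM (11.8 to 48.8). The first was 1.48-fold the second (1.10 to 2.005-fold), and the intervals of the ratios between the later neighbours included no difference. The median depth was 7522, 5499, 3957 and 5464 UMIs per cell in the same order, and its part in these levels was not tested. Dbi stood at 33179, 19076, 11602 and 16436 CPM. By their levels Mc5r and Dbi shared the order of the first 3 clusters and not that of the last. Of the Mc5r steps between neighbours, only the first lay beyond counting error, so the rest of that order is not settled. Gated sebocytes also lay outside these 4 clusters. An unnamed cluster of 390 cells led by Cck and Gsta3, 119 of them gated sebocytes, had Mc5r at 14.8 CPM (8.79 to 23.4).

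**Figure D2:**
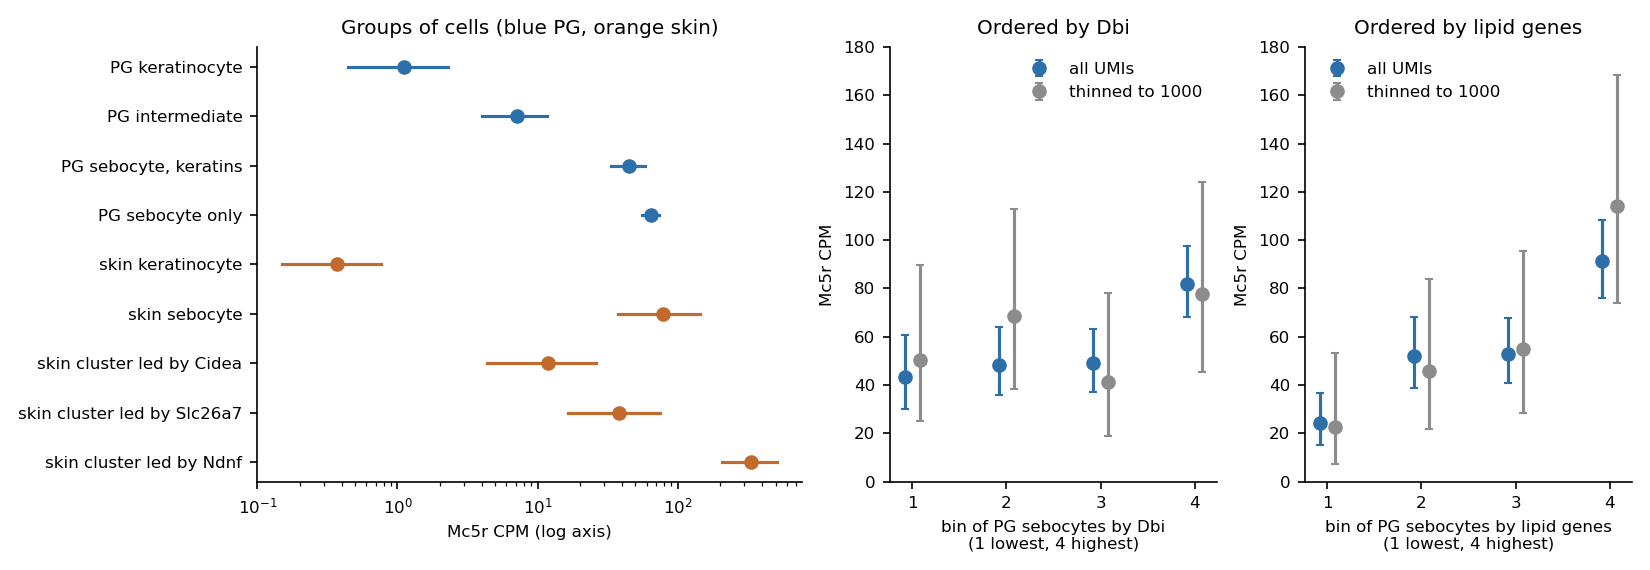
Mc5r level (CPM) with exact 95% intervals in groups of PG (blue) and skin (orange) cells on a log axis, and in 4 bins of PG sebocytes ordered by Dbi or by lipid genes on linear axes, with all UMIs or after thinning to 1000 UMIs per cell. The level is 1.11 CPM in PG keratinocytes, 336 CPM in a skin cluster led by Ndnf, and 24.4 to 91.2 CPM from the lowest to the highest lipid gene bin.

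In skin the sebocytes were few. The 27 cells held 10 Mc5r UMIs among 127615, a level of 78.4 CPM (37.6 to 144), in 5 of the cells. With doublets and the deepest cells left out, 26 cells held 7 Mc5r UMIs, 57.9 CPM (23.3 to 119), so the level hangs on few cells. Skin keratinocytes held 7 among 18851907 UMIs, 0.371 CPM (0.149 to 0.765), which made the 27 sebocytes 211-fold higher (72.5 to 653-fold). Dbi was low in these cells, with a median of 0 in the 14 cells of lowest Dbi share, which held 6 of the Mc5r UMIs, and the 13 others held 4. PG sebocytes stood at 0.7504-fold the level of skin sebocytes (0.402 to 1.58-fold, log2 ratio -0.41). A difference between the gated sebocytes of the tissues was thus not detectable at this depth. A skin cluster led by Cidea, given below, stood lower than the gated skin sebocytes. Free RNA of skin held Mc5r at 1.75 CPM, from 9 UMIs, and skin keratinocytes held 21.2% of that level. For other sebocyte genes they held 1.19% (Elovl3, from 23 free UMIs), 6.82% (Cidea), 21.1% (Soat1), 61.1% (Scd1) and 95.5% (Awat2, from 2 free UMIs). These genes are markers of the sebocyte gate, which limits their level in keratinocytes, and Mc5r is not. In skin barcodes of at most 20 UMIs Mc5r was at 5.39 CPM, from 3 UMIs, of which keratinocytes held 6.89%.

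Most skin Mc5r lay outside the sebocytes. Cells that passed no gate held 30 of the 51 UMIs. Of all skin UMIs, 21 lay in a cluster of 28 cells led by Ndnf, Wif1, Vcan, Inhba, Hhip and Rspo3, in 14 of its cells. The level there was 336 CPM (208 to 514), against 1.10 CPM in all other skin cells, and its interval lay above that of skin sebocytes. The median depth of this cluster was 2296 UMIs per cell, close to that of all skin cells. Of the 28 cells 24 passed no gate, and 1 was a sebocyte. Wif1 encodes a Wnt inhibitor, Rspo3 a Wnt potentiator and Hhip a hedgehog binding protein. The markers of the gated classes hold none for these cells, so the cluster was given no cell type name.

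A second cluster, of 105 skin cells led by Slc26a7, Dkk2, Enpp2 and Pappa2, held 8 Mc5r UMIs in 8 cells, 38.3 CPM (16.5 to 75.4). It also held Ndnf, at 330 CPM, against 2804 CPM in the first cluster. This cluster held 95 of the 122 skin UMIs of agouti (listed under its symbol a), 454 CPM (368 to 555), against 0.993 CPM in all other skin cells. Agouti is the antagonist of Mc1r that turns hair yellow and is known to come from dermal papilla cells of the follicle, and C57BL/6 mice carry its nonagouti allele. In the cluster led by Ndnf agouti was at 2 UMIs, 32.0 CPM (3.88 to 116). Of the 38 skin clusters, that led by Ndnf had the highest Mc5r level and that led by Slc26a7 the highest agouti level. Their opposite order in the 2 genes, beyond the intervals of each, follows from taking these maxima. The cluster led by Slc26a7 also had the next highest Mc5r level. Another skin cluster, of 97 cells led by Cidea, Defb8, Elovl6 and Scd1 and holding 13 of the gated sebocytes, had 6 Mc5r UMIs, 11.97 CPM (4.39 to 26.04). That was below the 64.9 CPM (57.1 to 73.4) of the 4 PG sebocyte clusters together, so the comparison of the tissues depends on how sebocytes are taken. Of its 97 cells 48 were gated as keratinocytes.

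Mc1r, the pigment receptor, was compared between melanocytes and keratinocytes of skin. The 21 melanocytes held 21 Mc1r UMIs among 83335, 252 CPM (156 to 385), in 11 of the cells, with up to 6 in a cell. Keratinocytes held 15 UMIs among 18851907, 0.796 CPM (0.445 to 1.31), each in a cell of its own, and the ratio was 317-fold (156 to 660-fold; log2 ratio 8.31). In this comparison 9.07% of 12691 genes were at least 4-fold higher in melanocytes, where 1 UMI is 12 CPM, and Mc1r stood at rank 22. Mc1r had enough UMIs to be ranked only through its 21 in melanocytes. Another 6 Mc1r UMIs lay in 2 cells of mixed markers, 5 of them in 1 cell. Hair matrix cells held 3 UMIs, immune cells 2 and fibroblasts 1. Skin sebocytes held 0, where 3 counts are 23.5 CPM.

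In PG no kept cell held a Mc1r UMI, which allows up to 0.196 CPM over the library, and no PG cell passed the melanocyte gate. The whole PG matrix held 1 Mc1r UMI, against 296 in skin.

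Most Mc1r of the skin library lay outside the barcodes taken as cells. Of the 296 UMIs, 185 (62.5%) lay in barcodes of 21 to 100 UMIs, at 35.98 CPM (30.98 to 41.5). Keratinocytes held 2.21% of that level, beside 2.33% for Mlana, 3.82% for Dct, 4.11% for Tyrp1 and 4.87% for Pmel, all melanocyte genes, and with 15 UMIs the Mc1r value is not told apart from the lowest of them. In barcodes of at most 20 UMIs Mc1r was at 8.99 CPM (2.92 to 20.97), from 5 UMIs, of which keratinocytes held 8.85%, beside 9.85% for Dct and 17.3% for Tyrp1. With free RNA subtracted the log2 ratio of melanocytes over keratinocytes was 9.58 with the profile of at most 20 UMIs and at least 10.55 with that of 21 to 100 UMIs. In barcodes of 21 to 100 UMIs the proportions of free RNA were not those of melanocytes. Per 100 UMIs of Dct there were 1.14 of Mc1r in melanocytes (0.702 to 1.74) and 6.07 in free RNA (5.21 to 7.05), with keratinocytes between them at 3.51 (1.95 to 5.86), while Tyrp1 stood at 18.7 and 16.5, with overlapping intervals. Pmel was at 40.2 per 100 Dct in melanocytes and 28.0 in free RNA, and Mlana at 47.7 and 68.0. Dct, Tyrp1, Pmel and Mlana are markers of the melanocyte gate, and Mc1r is not. The part of the gate in these proportions was not tested. Barcodes of at most 20 UMIs held 128 UMIs of Dct, 39 of Pmel, 43 of Mlana, 13 of Tyrp1 and 5 of Mc1r. There Mlana was not raised relative to Dct, and proportions with intervals were not computed. Of the 185 low barcodes with Mc1r, 10 also held Dct, 5.41% (2.62 to 9.72%), and of the 80699 without it 3.45% did (3.33 to 3.58%), which the first interval includes.

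**Figure D3:**
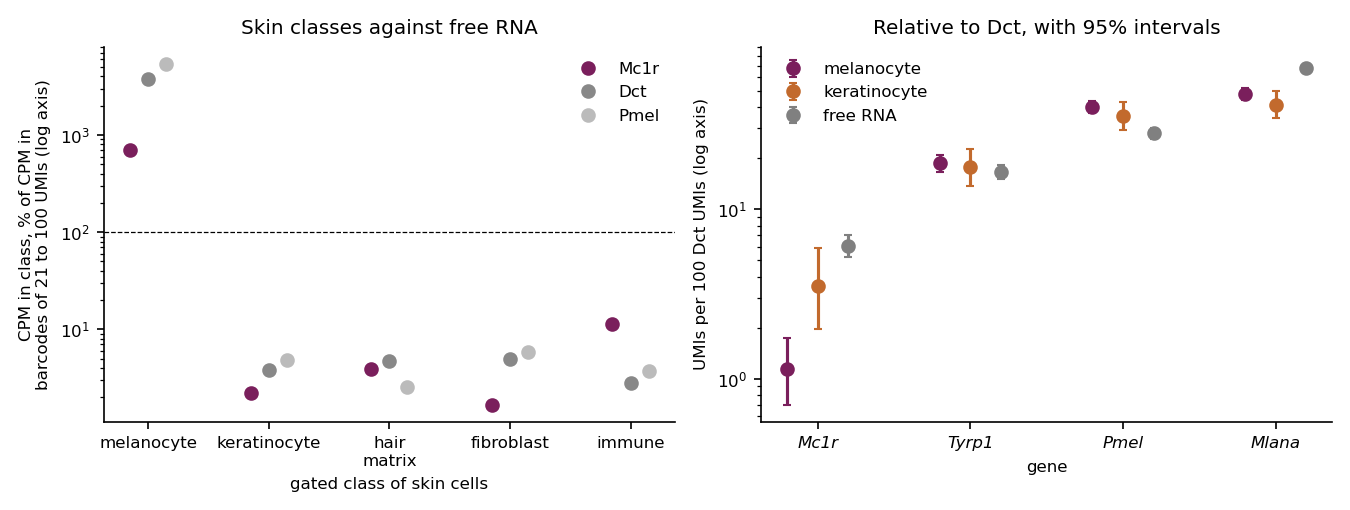
Left, level of Mc1r, Dct and Pmel in 5 skin classes as a percentage of their level in barcodes of 21 to 100 UMIs (log axis, dashed line at 100%); right, UMIs of 4 melanocyte genes per 100 Dct UMIs (log axis) with 95% intervals. Mc1r lies at 700.5% of the free level in melanocytes and at 2.21% in keratinocytes, and per 100 Dct it is 1.14 in melanocytes and 6.07 in free RNA.

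The stretch before Mc1r is shown because Mitf, the factor that directs melanocyte genes, was at 576 CPM in the same melanocytes (48 UMIs), against 11.7 CPM in keratinocytes, a ratio of 49.4-fold (35.3 to 67.7-fold). It is the 250 bases before the RefSeq start of Mc1r, chr8:123406832-123407081, plus strand, build GRCm38.p6, with the M-box, TCATGTG, in capitals.

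Mc1r: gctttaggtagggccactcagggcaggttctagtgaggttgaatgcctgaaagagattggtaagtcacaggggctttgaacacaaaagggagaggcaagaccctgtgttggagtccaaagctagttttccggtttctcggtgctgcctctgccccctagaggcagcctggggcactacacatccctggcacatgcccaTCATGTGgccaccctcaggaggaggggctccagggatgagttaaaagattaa

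The motif begins 52 bases before the start. TCATGTG was found on either strand in 3.77% of 32851 mouse promoter windows of 250 bases before to 50 after a start, and its last 6 bases, CATGTG, in 14.2%. The Mc1r window holds CATGTG once more, on the minus strand, 62 bases before the start. Of the other members with a window, Mrap2 held TCATGTG once, 136 bases before its start, and Pomc held none. Mrap2 had 0 UMIs in the melanocytes. Only the letters shown were matched, and whether Mitf binds there or acts on Mc1r was not tested.

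Mrap, the accessory protein of the corticotropin receptor, lay in PG fibroblasts. The 563 cells held 35 Mrap UMIs among 828628, 42.2 CPM (29.4 to 58.7), in 30 cells. PG keratinocytes and sebocytes held 0, so the fibroblast level was at least 89.1-fold higher than that of keratinocytes, at the limit of 3 counts. In that comparison 11% of 11219 genes were at least 4-fold higher in fibroblasts, and Mrap, at its lower bound, stood at rank 301. The 859 skin fibroblasts held 1 UMI, 0.604 CPM (0.0153 to 3.36), under the 1.81 CPM of 3 counts. The ratio of PG to skin fibroblasts was 70.0-fold with the wide interval of 11.8 to 2841, and its size rests on that UMI. Of 8750 genes 1.99% were at least 4-fold higher in PG fibroblasts than in skin fibroblasts and 1.91% at least 4-fold lower. Mrap stood at rank 5 from the highest ratio, a rank that rests on the same skin UMI. It had enough UMIs to be ranked only through its 35 in PG fibroblasts.

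Within PG, 39 of the 43 Mrap UMIs (90.7%) lay in 1 of 27 clusters, of 175 cells led by Mgp, Apod, Saa3, Bgn and Timp1, 147 of them in the fibroblast gate. The level there was 125 CPM (89.2 to 171), against 0.267 CPM in all other PG cells. Of the fibroblast-gated cells, the 147 in this cluster held 33 UMIs (139 CPM), 118 in a cluster led by Cxcl1, Ccl2 and Tnfaip6 held 1 (6.40 CPM, 0.162 to 35.7), and 241 in a cluster led by Pi16, Clec3b and Fn1 held 0. The interval of the first group, 95.4 to 195 CPM, lay above those of the other 2. All 37 cells with a Mrap UMI also held Dcn, the matrix proteoglycan decorin, and none held Adipoq, Plin1, Lep, Cfd or Adrb3, the adipocyte markers. The same was true of all 563 fibroblast-gated PG cells, and Dcn is a marker of that gate. These genes thus do not set the cells with Mrap apart. Mc2r, the receptor that Mrap serves, had 0 UMIs in the kept cells of either library.

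The same PG cluster held agouti. Of 58 agouti UMIs, 49 lay there, 158 CPM (117 to 208), against 0.602 CPM in all other PG cells. Among the fibroblast-gated cells 30 held Mrap, 33 held agouti and 5 held both. Agouti was 8.88-fold higher in PG than in skin fibroblasts (4.24 to 20.8-fold), from 40 and 9 UMIs. This ratio depends on the gate, which took 147 of the 175 cells of the PG cluster and 24 of the 105 cells of the skin cluster led by Slc26a7. By cluster, taking the one with most agouti in each library, it was lower in PG, at 158 CPM against 454 CPM. The size of this difference depends on the clustering, with 156 against 206 CPM at resolution 0.5 and 155 against 441 CPM at resolution 2.0. Over all kept cells there were 58 agouti UMIs among 15270076 in PG and 122 among 27407186 in skin. Of the skin agouti UMIs 13 lay in 1 cell. The receptor that agouti antagonises in pigment cells, Mc1r, had 0 UMIs in PG cells.

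**Figure D4:**
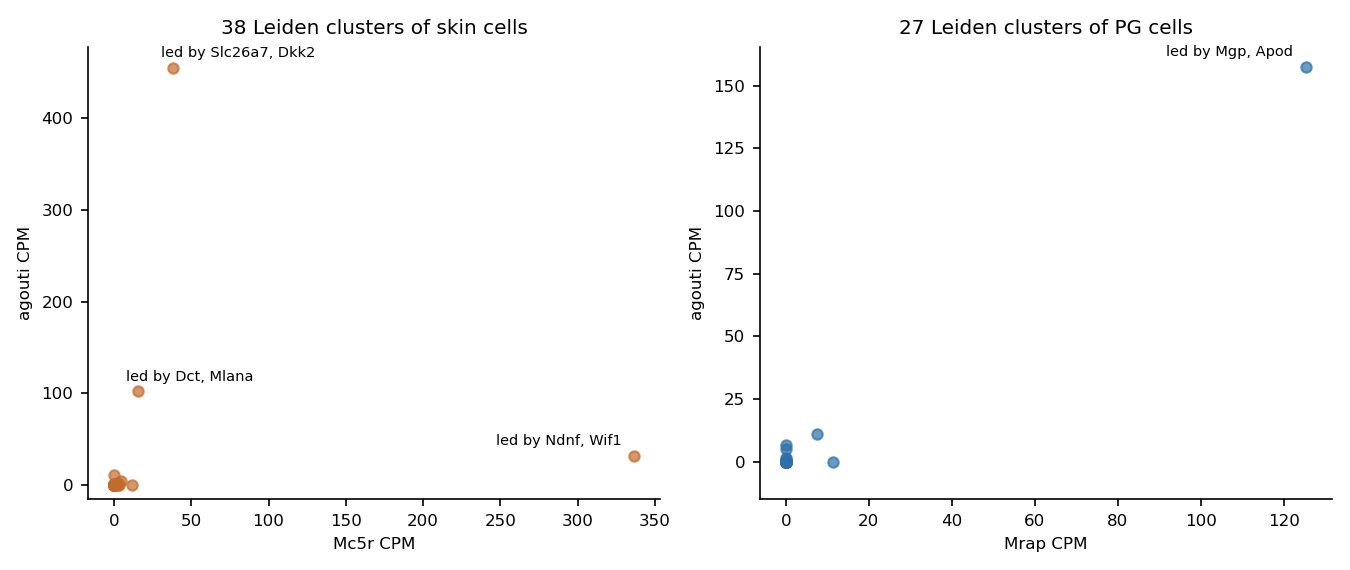
Agouti level against Mc5r in 38 skin clusters (left) and against Mrap in 27 PG clusters (right), 1 point a cluster, both axes in CPM and linear. The skin cluster led by Ndnf has 336 CPM of Mc5r and 32.0 of agouti, that led by Slc26a7 has 38.3 and 454, and the PG cluster led by Mgp has 125 CPM of Mrap and 158 of agouti.

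Pomc, the ligand precursor, was at the edge of detection. Its 13 skin UMIs lay in 13 cells, 3 each in immune cells, keratinocytes and cells of mixed markers and 2 each in endothelial cells and ungated cells. Its 7 PG UMIs lay in 7 cells, 3 in fibroblasts, 2 in endothelial cells and 1 each in an immune and an intermediate cell. The levels were 13.7 CPM (1.66 to 49.6) in skin and 26.8 CPM (3.24 to 96.7) in PG endothelial cells, under the limit of 3 counts in both, and 0.159 CPM in skin keratinocytes. Sebocytes held 0 in either tissue, as did the melanocytes, which were gated in skin alone. Mrap2 had its UMI in a PG fibroblast. No kept cell held UMIs of a pair of members except for 1 PG cell with Mc5r and Mrap.

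Of the 41 other genes of the pathway, 23 had at least 20 UMIs over PG sebocytes and keratinocytes, and 0 of them were at least 4-fold higher and 2 at least 4-fold lower in sebocytes, against 2.44% and 8.73% of all genes. Their median log2 ratio was -0.30, beside -0.06 for all genes tested. The lower count was near the share of all genes, and its 2 genes encode enzymes that cut and trim prohormones. Cpe, a carboxypeptidase, stood at 81.0 CPM in sebocytes and 1005 CPM in keratinocytes (log2 ratio -3.63, -3.79 to -3.48). Pcsk1, the convertase that cuts pro-opiomelanocortin, had 30 UMIs in PG keratinocytes, 4.74 CPM (3.20 to 6.77), and 0 in sebocytes. Cpe was at 36.7 CPM in skin keratinocytes.

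The other 21 genes lay within 4-fold. For 8 of them the interval of the ratio lay below no difference. Gnas, which encodes the Gs α subunit, stood at 292 CPM in PG sebocytes and 398 CPM in keratinocytes, a log2 ratio of -0.44 (-0.54 to -0.35). The cyclase Adcy3 was at 0.562-fold (0.306 to 0.9899) and the phosphodiesterase Pde4d at 0.319-fold (0.0944 to 0.864). The others were the amidating enzyme Pam (0.638-fold), the peptidase Prcp (0.356-fold) and the factors Nr4a1 (0.592-fold), Mitf (0.395-fold) and Creb1 (0.644-fold). For 4 genes the interval lay above no difference. The regulatory subunits of protein kinase A Prkar2a and Prkar2b were 2.12-fold (1.83 to 2.47) and 1.47-fold (1.22 to 1.77) higher in sebocytes, the cyclase Adcy9 1.91-fold (1.14 to 3.22) and Scarb1, a lipoprotein receptor that supplies cholesterol, 2.88-fold (1.97 to 4.26). For 9 genes it included no difference. These were Adcy6, Pde4b, Prkaca, Prkacb, Prkar1a, Crem, and Atrn, Atrnl1 and Mgrn1, of which Atrn and Mgrn1 act with agouti.

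In skin melanocytes 6 of 26 pathway genes with enough UMIs were at least 4-fold higher than in keratinocytes and 0 lower, against 9.07% and 2.36% of all genes, and apart from Mitf these (Crem, Prkacb, Pde4d, Adcy7 and Prkar2b) rested on 1 to 7 melanocyte UMIs, with intervals that included no difference for Adcy7 and Prkar2b. In PG fibroblasts 7 of 26 were higher and 2 lower than in keratinocytes, against 11% and 8.37%, with a median log2 ratio of 0.88 beside -0.09 over all genes. They were agouti, Atrnl1, Pam, Nr4a1, Mitf, Adcy7 and Akap12, and the lower ones were Cpe and Prkar2b. Akap12, a scaffold for protein kinase A, had the largest ratio of them, 139-fold (68.9 to 329-fold), with 176 CPM in fibroblasts and 1.26 CPM in keratinocytes. Between PG and skin fibroblasts 1 of 23 pathway genes, agouti, was at least 4-fold higher and 0 were lower, with a median log2 ratio of 0.20 beside -0.01 over all genes. Of the other receptors, Mc3r had 0 UMIs in the kept cells of either library and Mc4r had 5 in the kept PG cells, 3 of them in fibroblasts.

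By the correlation of log2(CPM + 10) over 10 classes of at least 50 cells, the genes most like Mc5r were Lrp2 (r = 0.99), Acbd7, Gm9944, Gm9745 and Fa2h, all highest in PG sebocytes, where Acbd7 stood at 83.6 CPM and Fa2h, a fatty acid hydroxylase, at 121 CPM. Those most like Mrap were Epyc, CR974586.4, Hoxc11, Gm46323 and Isl1, all highest in PG fibroblasts, with Isl1 at 90.5 CPM. For Mc1r and Pomc the rule gave Ctnnbl1, Lpar3, Tcf7, Avil and Adap2os and Rasgrp2, Klrb1f, Rhobtb1, 4930486L24Rik and Zdhhc12, but the classes that set these patterns held 2 or 3 UMIs of the member. With classes of at least 20 cells (17 classes, added after the data were seen) the melanocytes entered, and the genes most like Mc1r were Mcoln3, Syt4, Sox10, Cubn and Synpr. Those most like Mc5r were then Panx3, Fa2h, Clstn3, Pnpla5 and Gm9944, of which Panx3, Fa2h and Clstn3 were highest in skin sebocytes, and Lrp2, Acbd7 and Gm9745 were no longer among them. For Mrap Sfrp5 took the place of Isl1, and for Pomc all 5 genes changed, to Cd300lg, Ifi44, Sema7a, Sh3tc1 and Sh2d3c. The classes share libraries and free RNA, so these correlations are a description.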

How the data were processed

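Libraries were made from dissociated back skin and whole preputial glands with a droplet-based 3′ kit, version 3.1 per the labels, and the authors deposited the UMI counts per gene and barcode that Cell Ranger 4 wrote for mm10, without normalization or a filter on barcodes. The barcode lists differ in length, 6794880 in skin and 737280 in PG, although the labels name the same kit version. Whether the chemistry differed between the libraries was not tested. Counts were read with Python 3.11.15, numpy 2.4.6, scipy 1.17.1 and pandas 2.3.3. Counts were summed per gated class, so cells were not treated as replicates. The gates took at least 3 markers and, per 10000 UMIs, 40 marker UMIs for sebocytes, melanocytes and hair matrix, 20 for keratinocytes and contractile cells, 60 for fibroblasts and skeletal muscle, 30 for immune cells and 15 for endothelial, Schwann and adipocyte-like cells. A keratinocyte with 20 sebocyte marker UMIs per 10000 was intermediate. These limits were set after the sums per cell had been seen, and the members and lists were chosen with earlier results of these data known. Free RNA was read from barcodes of 21 to 100 UMIs, a profile chosen after the data were seen. Levels of Mc5r and Mc1r and the shares held by keratinocytes from the planned profile, at most 20 UMIs, stand beside them. Proportions between genes were taken from the profile of 21 to 100 UMIs alone. Doublets were not removed except in an alternative. Clusters were made with 2000 variable genes, 30 principal components, 15 neighbours and leidenalg 0.10.2 at resolution 1.0, leaving out the members and the pathway list. A cluster was named if its summed counts passed a gate that at least 50% of its cells passed too. All members, the 5 genes of most like pattern and pathway genes with at least 20 UMIs were to be named. For length, this was done in full for PG sebocytes over keratinocytes, and in the other comparisons the pathway genes past 4-fold were named and the rest counted. Ratios and thinning were tested on simulated data. Promoters come from RefSeq, where 3 of the 5 members matched. Genes named outside these rules, such as Mc2r, Mc4r and the genes that lead clusters, were chosen after their values were seen. Levels were compared within a gene, not between genes. Alternatives changed the limits on cells, gates, mixed cells, doublets, classes, free RNA, scaling, bins and depth.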

Additional observations from a re-analysis of the deposited data

Results flagged for a closer look

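Barcodes that passed the limits on genes and UMIs but had over 10% mitochondrial UMIs were in no comparison, and they held members above the limit of 3 counts. In PG 662 such barcodes held 101 Mc5r UMIs, 58.7 CPM, of which 85 lay in 178 barcodes that passed the sebocyte gate, at 147 CPM against 58.8 CPM in the sebocytes kept. In skin 232 such barcodes held 8 Mc5r UMIs, 4 of them in 8 sebocyte-gated barcodes. They also held 12 Mc1r UMIs, 8 of them in 13 melanocyte-gated barcodes. What these barcodes are was not tested.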

How the results depend on the processing

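No paired analysis was possible because each tissue has 1 library. Of 116 values under alternatives for 16 results, 103 stayed within the 95% interval of the reported value, 13 left it and 0 of the ratios whose interval excluded no difference changed sign. The log2 ratio of Mc5r in PG sebocytes over keratinocytes ranged from 5.11 to 5.93, and was at least 6.69 and at least 6.84 with free RNA subtracted. That of PG over skin sebocytes ranged from -0.74 to 0.01, the last with doublets and the deepest cells left out, where its sign turned, and Mc1r in melanocytes from 205 to 365 CPM. Mc5r in PG sebocytes was 68.8 CPM without a mitochondrial limit, 69.7 under a stricter gate, 46.5 under a looser gate and 86.6 with the 50 most abundant genes left out of the scaling, which by construction raises each level, as it did for Mrap in PG fibroblasts (59.5 CPM). Mrap there was 80.4 CPM with at least 1000 genes and 2000 UMIs, from 50 cells. With free RNA of barcodes of at most 20 UMIs subtracted, Mc5r in PG keratinocytes was 0 CPM, the skin sebocyte ratio of Mc5r was 10.64 and the melanocyte ratio of Mc1r 9.58 on the log2 scale. With the profile of 21 to 100 UMIs, added after the data were seen, Mc5r in PG keratinocytes was again 0 CPM and the Mc1r ratio at least 10.55. These levels of 0, and the bounds that rest on them, were fixed by the size of the share subtracted. Thinning lowered the share of cells with a UMI to 5.94% for Mc5r and 19.0% for Mc1r, as fewer UMIs must. Clusters gave no sebocyte class in skin, so that alternative has no value there. At resolutions 0.5 and 2.0, also added, Mc5r in the Ndnf cluster was 336 CPM and 90.7% of Mrap stayed in 1 cluster. The 27 skin sebocytes and 21 melanocytes limit every value that rests on them.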
